A study of Homo sapiens with 9 samples.

Results

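The p53 pathway target genes are genes whose transcription the tumour suppressor p53 is known to raise, together with closely related genes of the same response. The set held 37 members of the 25680 gene symbols in the deposited counts, and a member was found where its symbol matched exactly, with the transcript of highest total count standing for the gene. All 37 were found, and 34 of them passed the filter on low counts, as did 14199 genes in all. They were followed in SKNO-1 cells, an acute myeloid leukaemia cell line with the AML1-ETO fusion protein (RUNX1-RUNX1T1; AML-ETO in the labels), across 9 RNA samples in 3 groups of 3. The shControl samples carried no shRNA against ASXL2. The labels call them EV without spelling out the abbreviation, and the study's results text names a control shRNA. The shASXL2-2 and shASXL2-3 samples (SH2 and SH3) each carried a different shRNA against ASXL2. ASXL2 is a chromatin regulator of the Polycomb and Trithorax pathways. No treatment that damages DNA or activates p53 is named for these samples in the labels, and the methods describe culture with serum and GM-CSF. Each group holds 1 sample with the number 1, 1 with 13 and 1 with 25, and the labels do not say what these numbers stand for. The study's text calls the samples of a group biological replicates; the labels do not, and p-values here measure the spread between these samples. The extraction text attached to the samples describes sorted bone marrow cells rather than a cell line.

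In unstressed cells p53 is kept low by MDM2 and MDM4, which bind it and, in the case of MDM2, mark it for degradation. When DNA damage or another stress frees p53, it binds response elements in its target genes and raises genes that halt the cell cycle, repair DNA or start apoptosis, and it also raises MDM2, which closes a feedback loop. The p21 protein made from CDKN1A blocks cyclin-dependent kinases, and many cell cycle genes are then lowered through the DREAM repressor complex.

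The labels of the cells and of the knockdown were checked first. RUNX1T1, the fusion partner gene, was at 111 to 138 CPM (the count scaled to the effective library size), and the myeloid markers CD33 at 88.2 to 112 CPM, MPO at 6368 to 10243 CPM and KIT at 237 to 419 CPM. CD34 did not pass the filter, at 0.0680 to 0.309 CPM, and the 10 markers of T, B, erythroid, fibroblast and epithelial cells reached at most 0.138 CPM. ASXL2 was at 67.9, 67.9 and 74.7 CPM in the shControl samples numbered 1, 13 and 25, at 30.4, 36.2 and 36.2 CPM in shASXL2-2 and at 26.9, 29.1 and 41.1 CPM in shASXL2-3, so all 6 knockdown samples lay below all 3 controls. With both shRNAs averaged, its log2 fold change came to -1.09 ± 0.08 (SE) in the fit with the sample number as a block (edgeR quasi-likelihood test, adjusted p = 0.000980), and -1.08 ± 0.13 without it (adjusted p = 0.177).

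The members covered a wide range of levels. Per kilobase of the GENCODE canonical transcript, which may differ from the transcript counted, CCNG1 had the highest level in the controls at 71.0 CPM per kb, followed by TRIAP1 at 38.1, GADD45A at 27.7 and CDKN2A at 23.9 CPM per kb. At the other end, EDA2R, a death receptor gene, had 2 counts and SPATA18, a mitochondrial quality control gene, had 1 count over all samples. GDF15, a secreted cytokine that is a common readout of p53 activity, gave 10, 8 and 18 reads in the controls (numbers 1, 13 and 25 in this order, as throughout), 6, 2 and 5 in shASXL2-2 and 9, 2 and 1 in shASXL2-3. These 3 genes are the ones that did not pass the filter. Among the members that did, GADD45G, PHLDA3, PERP and PLK2 were at 2.23 CPM or below in every sample, and CDKN1A, FDXR, LIF and SESN1 stayed between 6.30 and 21.7 CPM. CDKN2A encodes both p16 and ARF, and the counts of its 4 transcript rows differed by so little (the lowest had 91.6% of the highest) that the products cannot be told apart. For CASP8, APAF1 and DDB2 the lowest row held 45.6%, 62.6% and 74.9% of the highest, so for these genes a count describes the transcript chosen.

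The proximal promoters of CDKN1A, CCNG2 and AEN are shown because CDKN1A was the member with the smallest p for the average of both shRNAs, and CCNG2 and AEN were the members with the largest positive and negative difference of the samples numbered 1. Each is the stretch of 250 bases before the gene's start in RefSeq, on GRCh38.p14, 5′ to 3′ on the coding strand. Capitals mark GC boxes (GGGCGG or its complement CCGCCC, both strands, overlaps counted) in CDKN1A and CCNG2, and in AEN a match to the p53 response element. The windows are chr6:36678464-36678713 (CDKN1A), chr4:77156957-77157206 (CCNG2) and chr15:88621090-88621339 (AEN), all on the plus strand, and other annotated transcripts of CDKN1A start farther upstream.
CDKN1A: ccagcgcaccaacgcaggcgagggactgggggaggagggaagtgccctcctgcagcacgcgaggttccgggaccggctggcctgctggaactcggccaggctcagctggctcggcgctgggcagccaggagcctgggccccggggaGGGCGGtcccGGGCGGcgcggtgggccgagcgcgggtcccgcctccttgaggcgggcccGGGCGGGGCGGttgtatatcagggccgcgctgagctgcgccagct
CCNG2: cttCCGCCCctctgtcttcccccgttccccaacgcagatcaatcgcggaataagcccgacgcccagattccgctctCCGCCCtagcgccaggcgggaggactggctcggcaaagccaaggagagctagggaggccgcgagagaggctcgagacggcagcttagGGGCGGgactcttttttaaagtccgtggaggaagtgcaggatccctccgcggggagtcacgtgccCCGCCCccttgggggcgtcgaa
AEN: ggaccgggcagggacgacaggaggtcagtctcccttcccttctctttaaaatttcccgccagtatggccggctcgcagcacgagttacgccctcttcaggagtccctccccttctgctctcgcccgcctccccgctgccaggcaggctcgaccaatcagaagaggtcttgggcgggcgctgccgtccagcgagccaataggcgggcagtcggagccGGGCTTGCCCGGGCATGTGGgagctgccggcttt
A window of 300 bases, reaching 50 bases past the start, was given for 30 members and searched for the p53 response element, taken as 2 joined motifs of 10 bases without a spacer, with both core bases of each motif intact and at most 2 other mismatches, on both strands. AEN was the one member with a match, at chr15:88621306-88621325 (2 mismatches, first base 34 bases before the start), against 0.285% of all 35116 windows of this length. GC boxes, counted in the 250 bases before the start only, were common. Of the 30 members, 22 (73.3%) had at least 1, as did 42.6% of all windows. CDKN1A and CCNG2 each had 4, a number reached by 7.63% of all windows. The windows were not matched to the members by gene type or level, so these shares do not show a trait of p53 targets. A match describes these letters only. TNFRSF10A, TNFRSF10B, TP53INP1, RRM2B, GADD45A, PHLDA3 and LIF were not searched.

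The first comparison asked whether lowering ASXL2 moved the p53 target genes. For both shRNAs averaged, CDKN1A had the smallest p and the lowest value, and ZMAT3, FDXR and TNFRSF10A had the next smallest p, but with all 9 samples and the filter on low counts none of the 34 members passed an adjusted p of 0.05 in any contrast between groups in edgeR. In the fit without the block, 0 of 34 members and 0% of the 14199 genes were called in each of the 4 contrasts (edgeR), which were shASXL2-2 and shASXL2-3 against shControl, their average against shControl, and shASXL2-3 against shASXL2-2; at an unadjusted p under 0.05 the members numbered 1, 4, 3 and 1, in that order, where all genes gave 5.37%, 5.09%, 6.63% and 2.06%. DESeq2 without the block also called 0 members in each of the 4 contrasts, and 22, 26, 56 and 11 of all genes. With the block the calls over all genes were 0.282% for shASXL2-2, 0.416% for shASXL2-3, 1.1% for the average of the 2 and 0.106% for one shRNA against the other, and 0 of 34 members were called in each. At an unadjusted p under 0.05 in this fit the members numbered 8, 4, 5 and 7, against 18.7%, 18.7%, 20.4% and 11.9% of all genes. The 2 shRNA contrasts share the control samples, so they are not independent of each other. For both shRNAs averaged with the block, 10 members had a positive and 24 a negative value with a median of -0.09, where the median of all genes was 0.01.

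CDKN1A (NM_001220778; chromosome 6, 36644237 to 36655114, plus strand, GRCh37) encodes p21, the cyclin-dependent kinase inhibitor through which p53 halts the cell cycle. Its normalised read count was 11.7, 21.7 and 15.9 CPM in the shControl samples numbered 1, 13 and 25, 8.87, 15.8 and 11.3 CPM in shASXL2-2 and 10.8, 12.4 and 8.7 CPM in shASXL2-3. The group means were 16.4 ± 5.0, 12 ± 3.5 and 10.6 ± 1.8 CPM (SD, n = 3 each). Every knockdown sample was lower than the control with its own number, yet the groups overlapped, since the control numbered 1 was lower than both samples numbered 13 with an shRNA. Within numbers, the log2 ratio to the control was -0.40, -0.45 and -0.48 for shASXL2-2, and -0.11, -0.81 and -0.86 for shASXL2-3. Averaged over both shRNAs, the log2 fold change amounted to -0.54 ± 0.23 (SE; edgeR, adjusted p = 0.742) without the block and -0.52 ± 0.12 (adjusted p = 0.0696) with it. DESeq2 with the block called CDKN1A for both shRNAs averaged (adjusted p = 0.00902) and for shASXL2-3 (adjusted p = 0.0129), and so did edgeR with the block and no filter on low counts (adjusted p = 0.0111 and 0.0160).

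ZMAT3 (NM_152240; chromosome 3, 178677909 to 178790003, minus strand, GRCh37), an RNA-binding zinc finger protein induced by p53, was at 131, 128 and 97.7 CPM in the controls, 98.1, 108 and 87.9 CPM in shASXL2-2 and 83, 111 and 86.4 CPM in shASXL2-3. All 6 same-number ratios were below 0 on the log2 scale, and the samples numbered 13 with an shRNA exceeded the control numbered 25. The value for both shRNAs averaged was -0.31 ± 0.08 with the block (edgeR, adjusted p = 0.0757) and -0.31 ± 0.13 without it (adjusted p = 0.742); DESeq2 with the block called it for shASXL2-3 (adjusted p = 0.0203) and for both averaged (adjusted p = 0.0129). CDKN1A and ZMAT3 were the 2 members of 34 that DESeq2 with the block called in these contrasts, both lower, where it called 4.04% of the genes given an adjusted p for shASXL2-3 and 5.5% for both averaged. The same 2 members were called in these contrasts by edgeR with the block and no filter, where 2.06% and 2.83% of all genes were. A correction for gene length and GC content within the block fit left CDKN1A at -0.55 (edgeR, adjusted p = 0.0928) and moved ZMAT3 to -0.20 (adjusted p = 0.303).

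FDXR (NM_001258013; chromosome 17, 72858619 to 72869156, minus strand, GRCh37), the mitochondrial ferredoxin reductase, was at 16.3, 20.1 and 18.2 CPM in the controls, 16.6, 15.7 and 14.2 CPM in shASXL2-2 and 16.4, 13.5 and 12.4 CPM in shASXL2-3. The 3 samples numbered 1 were almost level, and the differences lay in the samples numbered 13 and 25. Its value for both shRNAs averaged was -0.30 ± 0.10 with the block (edgeR, adjusted p = 0.138). MDM2, the ubiquitin ligase that degrades p53, was at 99.9, 117 and 99.4 CPM in the controls, 95.8, 111 and 101 CPM in shASXL2-2 and 92.7, 108 and 95.7 CPM in shASXL2-3, with a value of -0.07 ± 0.05 in the same fit (edgeR, adjusted p = 0.499). The 3 members with the smallest p for shASXL2-2 alone were BTG2 (-0.27 ± 0.08), an antiproliferative gene, CDKN1A (-0.45 ± 0.14) and ZMAT3 (-0.28 ± 0.09), and the smallest adjusted p of any member there was 0.131 (edgeR with the block). BTG2 and DDB2, a DNA damage sensor, had the smallest p for the difference between the shRNAs, with values of shASXL2-3 above shASXL2-2 by 0.30 ± 0.08 and 0.48 ± 0.13 on the log2 scale, neither past the threshold (edgeR with the block, adjusted p = 0.185 and 0.220). Without shASXL2-3 numbered 1 the DDB2 difference was 0.26 ± 0.10 (edgeR with the block, adjusted p = 0.377).

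No member had the 6 knockdown samples wholly below or wholly above the 3 controls, where 2.61% of all genes were below and 2.16% above. Set against the control of the same number, CDKN1A, ZMAT3, TNFRSF10A and MDM4 were lower in all 6 pairs and no member was higher in all 6, that is 4 and 0 of 34, where 11.6% of all genes were lower and 11.6% higher. For MDM4, the p53 inhibitor related to MDM2, the 6 ratios ran from -0.48 to -0.01 on the log2 scale, so that its count of pairs rests partly on very small differences. TNFRSF10A, a receptor for the death ligand TRAIL, ran from -0.31 to -0.11.

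The members were also read by role, for both shRNAs averaged in the fit with the block. The 5 members grouped as feedback genes (MDM2, MDM4, PPM1D, CCNG1, CCNG2) had 2 positive and 3 negative values with a median of -0.06. The 9 cell cycle genes had 4 positive and 5 negative values (median -0.00), the 4 repair genes (XPC, DDB2, RRM2B, POLH) had 0 positive and 4 negative (median -0.08), and the 12 apoptosis genes past the filter had 4 positive and 8 negative (median -0.11). By shRNA, the apoptosis genes had 3 positive and 9 negative values for shASXL2-2 (median -0.17), but 7 positive and 5 negative for shASXL2-3 (median 0.02). The 4 genes of metabolism and secretion past the filter (TP53I3, SESN1, FDXR, LIF) were all negative, with a median of -0.21. No member of any role passed the threshold in this contrast, and the largest positive value, that of GADD45G, rested on 73 counts in all 9 samples together (0.67 ± 0.42).

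**Figure D1:**
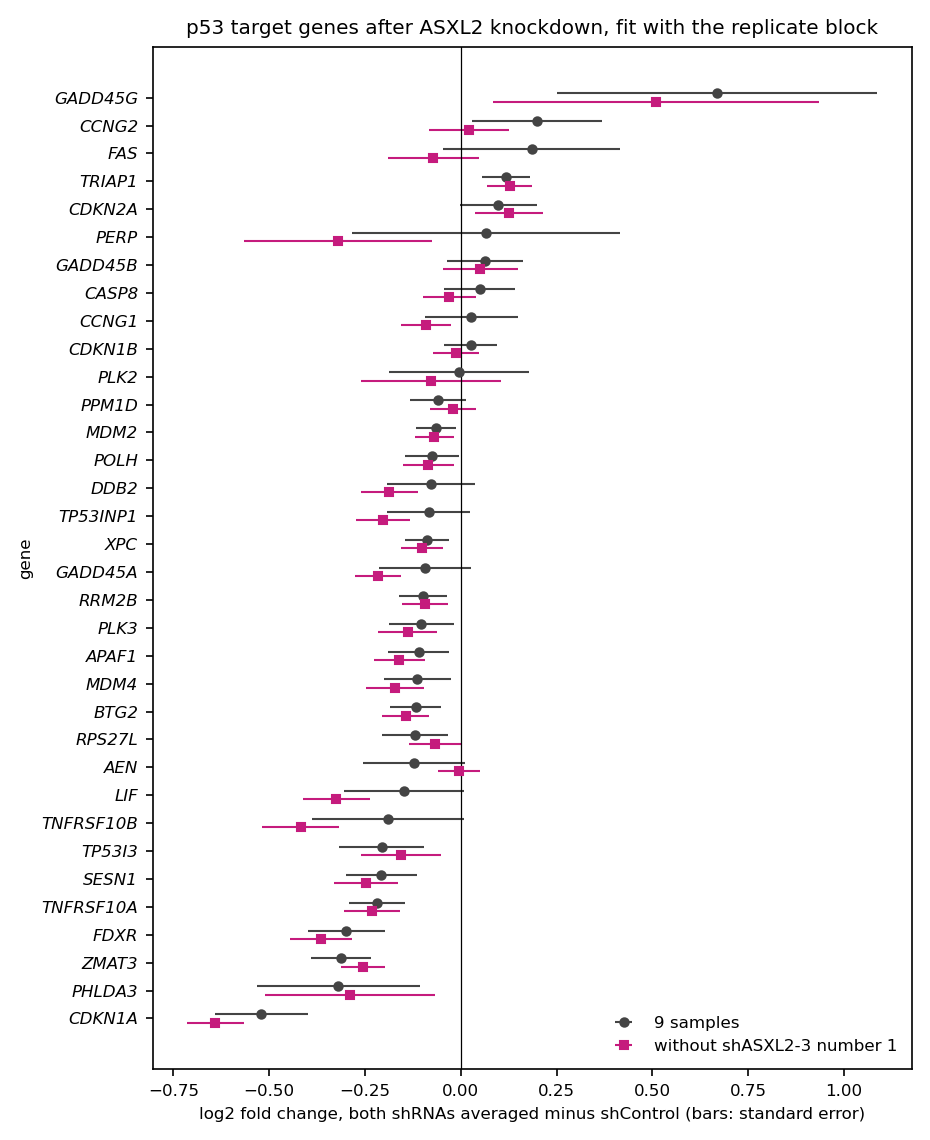
Log2 fold change of the 34 members that passed the filter (both shRNAs averaged minus shControl, fit with the sample number as a block), with bars for the standard error. Circles use all 9 samples and squares leave out shASXL2-3 number 1; CDKN1A is lowest in both, at -0.52 and -0.64, and its bar is shorter in the latter.

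One library, shASXL2-3 numbered 1, stood apart for several members. FAS, the death receptor gene, was at 4.95, 4.69 and 4.8 CPM in the controls, 4.79, 3.79 and 4.75 CPM in shASXL2-2 and 12.5, 4.82 and 4.4 CPM in shASXL2-3. TNFRSF10B, the second TRAIL receptor gene, was at 18.4, 15.6 and 12.4 CPM, 13.5, 10.8 and 10.3 CPM and 30.5, 9.36 and 12 CPM in the same order. In both genes the shASXL2-3 sample numbered 1 was the highest of the 9. DDB2, at 21.3, 21.4 and 15.9 CPM in the controls, 18.6, 15.1 and 13.4 CPM in shASXL2-2 and 32.3, 18.7 and 16.4 CPM in shASXL2-3, and GADD45A, a stress-induced growth arrest gene, at 37.5, 39.2 and 35.5 CPM in the controls, 39.1, 33.4 and 34.2 CPM in shASXL2-2 and 49.8, 29.1 and 28 CPM in shASXL2-3, had their highest value in it too. PERP, an epithelial membrane protein gene expressed at low level here, reached 1.94 CPM in that sample against 0.401 to 0.936 CPM in the others. LIF, a secreted cytokine gene, was at 14, 8.84 and 11.4 CPM in the controls, 12, 7.05 and 10.8 CPM in shASXL2-2 and 19.1, 6.3 and 8.77 CPM in shASXL2-3, again with the highest value there. The comparisons were therefore also given without this library, a choice made after its values had been seen.

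Without that library, members passed the threshold in the fit with the block, all of them lower in the knockdown cells. Of all genes, 6.61% were called lower and 4.62% higher for shASXL2-2, 1.76% and 0.819% for shASXL2-3, and 7.19% and 5.09% for both averaged. For shASXL2-2 the calls were 6 of 34 members, against 11.2% of the 14291 genes then tested: CDKN1A (-0.45), TNFRSF10B (-0.42), DDB2 (-0.32), RPS27L (-0.28), ZMAT3 (-0.27) and BTG2 (-0.27). For shASXL2-3, now 2 samples, they were 3 of 34 against 2.58%: CDKN1A (-0.83), FDXR (-0.50) and GADD45A (-0.36). With both shRNAs averaged they were 6 of 34 against 12.3%, namely CDKN1A (-0.64), TNFRSF10B (-0.42), FDXR (-0.37), LIF (-0.33), ZMAT3 (-0.26) and GADD45A (-0.22). CDKN1A passed in each of these contrasts, with adjusted p of 0.00735, 0.000936 and 0.000600 (edgeR). Among the shASXL2-3 samples, the library left out had the smallest fall of CDKN1A. Its log2 ratio to the control of its number was -0.11, against -0.81 and -0.86. For FDXR the ratio was 0.02 in that library, against -0.57 and -0.55. Leaving that library out therefore lowers the shASXL2-3 and averaged values of CDKN1A and FDXR by construction. TNFRSF10B, GADD45A and LIF were among the genes whose high values in that library led to its being left out. Without it the shASXL2-3 and averaged values of these genes fall by construction, so their calls are not independent of that choice. DDB2 was also among the genes that led to it. The fit takes a shared estimate of the spread of each gene from all samples. The shASXL2-2 calls of TNFRSF10B and DDB2 are therefore not independent of the choice either. Between the shRNAs, RPS27L, a ribosomal protein paralogue induced by p53, was higher in shASXL2-3 by 0.42 ± 0.09 (edgeR, adjusted p = 0.0439), 1 of 34 members against 0.721% of all genes. RPS27L was at 29.5, 31.9 and 31.9 CPM in the controls, 26.6, 23.3 and 27.1 CPM in shASXL2-2 and 27, 35.8 and 33.4 CPM in shASXL2-3, so its shASXL2-2 samples were all at or below 27.1 CPM. The shASXL2-3 sample left out, at 27 CPM, lay within the range of shASXL2-2, and with every sample included the difference was not called.

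**Figure D2:**
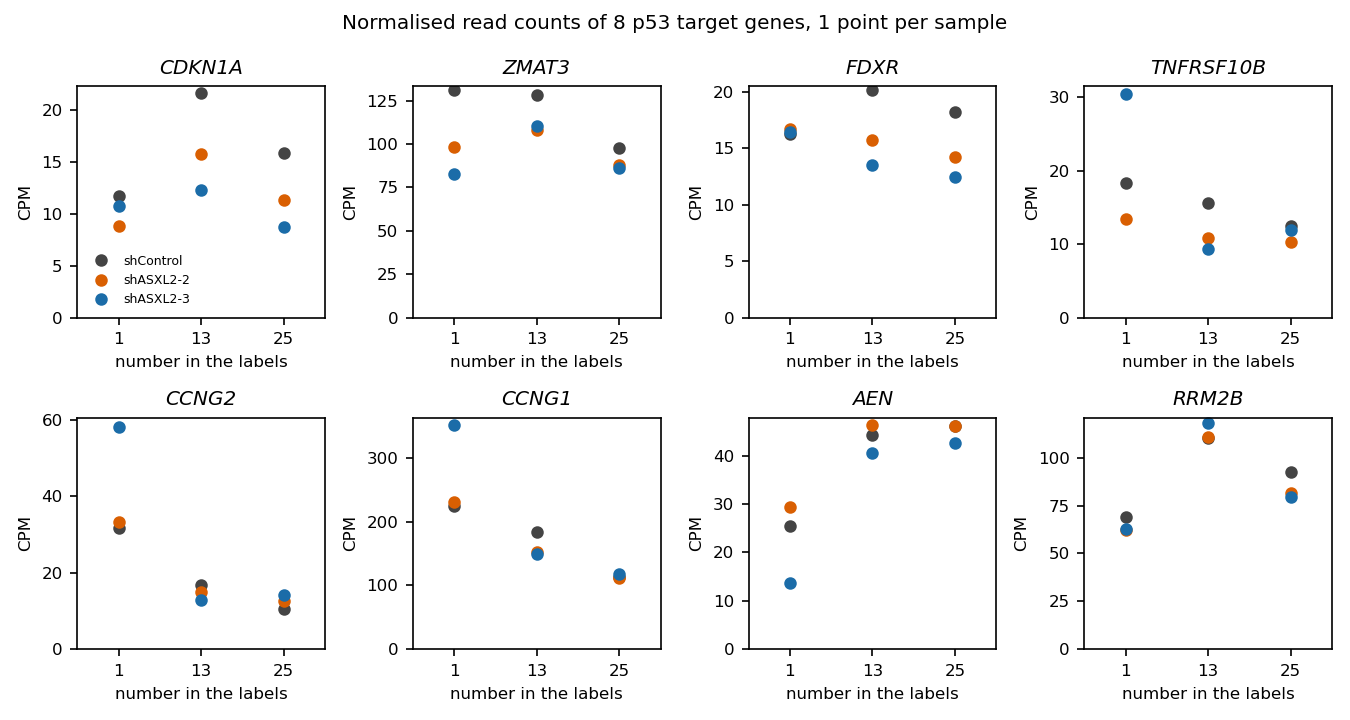
Normalised read counts in CPM (linear axis from 0) of 8 members, 1 point for each sample, by the number in the labels and coloured by group. CDKN1A lies below the control of its number in every knockdown sample, while CCNG2 and CCNG1 are highest and AEN and RRM2B lowest in the samples numbered 1, with shASXL2-3 at 58.3 CPM for CCNG2.

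The second comparison set the samples numbered 1 against those numbered 13 and 25, with group as a term. Of the 34 members, 19 passed the threshold, 12 higher and 7 lower in the samples numbered 1. Over all genes 46.3% passed, 24.1% higher and 22.2% lower, so that a large share of the transcriptome differed along with the members. CCNG2, CCNG1 and TP53INP1 were the highest and AEN, PHLDA3 and RRM2B the lowest. In 11 members the 3 samples numbered 1 lay wholly on 1 side of the other 6 (8 above, 3 below), where 26.5% of all genes did.

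Among the members grouped here as feedback genes, the cyclin G genes differed most. CCNG2 (NM_004354; chromosome 4, 78078360 to 78354542, plus strand, GRCh37), a cyclin that is linked to cell cycle exit, was at 31.7, 16.7 and 10.4 CPM in the shControl samples numbered 1, 13 and 25, 33.3, 15 and 12.5 CPM in shASXL2-2 and 58.3, 12.8 and 14.1 CPM in shASXL2-3. CCNG1 (NM_004060; chromosome 5, 162864575 to 162873157, plus strand, GRCh37), which helps to activate MDM2 and is a classical p53 target, was at 224, 183 and 113 CPM, 231, 152 and 111 CPM and 351, 148 and 118 CPM. In each group the sample numbered 1 was the highest for both genes. The log2 differences were 1.56 ± 0.16 for CCNG2 (edgeR, adjusted p = 0.000187) and 0.97 ± 0.12 for CCNG1 (adjusted p = 0.000394), and without shASXL2-3 numbered 1 they were 1.26 and 0.73, both still past the threshold. MDM2, MDM4 and PPM1D did not pass, with MDM2 at -0.13 ± 0.05 (edgeR, adjusted p = 0.0665).

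Cell cycle members went both ways. CDKN1B, the gene for the kinase inhibitor p27, was at 63.6, 58.2 and 43.9 CPM in the controls, 66.7, 55.6 and 47.4 CPM in shASXL2-2 and 71.1, 50.2 and 46.9 CPM in shASXL2-3, and was higher in the samples numbered 1 by 0.42 ± 0.07 (edgeR, adjusted p = 0.00117). CDKN1A was lower by 0.40 ± 0.13 (adjusted p = 0.0248); the difference was -0.66 in the controls and -0.59 in shASXL2-2 but 0.06 in shASXL2-3, and -0.63 in the fit without shASXL2-3 numbered 1. Thus the genes for p27 and p21 differed in opposite directions in the samples numbered 1 of the controls and of shASXL2-2. Between the numbers 25 and 13 they went the same way, both lower in the sample numbered 25 of every group. PLK3, a stress-responsive kinase gene, was at 13.4, 17.1 and 20.01 CPM in the controls, 13.2, 14.7 and 19.998 CPM in shASXL2-2 and 13.9, 13.2 and 19.4 CPM in shASXL2-3, and was lower by 0.35 ± 0.09 (adjusted p = 0.00785). Its mean was 13.5 CPM for number 1, 15 CPM for number 13 and 19.8 CPM for number 25, so most of the difference lay in the samples numbered 25. GADD45A was higher by 0.35 ± 0.12 (adjusted p = 0.0334), and this call was lost when shASXL2-3 numbered 1 was left out.

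Of the repair genes, RRM2B, a ribonucleotide reductase subunit that supplies nucleotides for repair, was at 69.1, 110.2 and 92.6 CPM in the controls, 62, 111 and 81.4 CPM in shASXL2-2 and 62.8, 118 and 79.3 CPM in shASXL2-3. It was lower in the samples numbered 1 by 0.60 ± 0.06 (edgeR, adjusted p = 0.000243). The samples numbered 1 did not overlap the others for this gene. DDB2 was higher by 0.50 ± 0.11 (adjusted p = 0.00560) and XPC, which recognises damaged DNA, by 0.20 ± 0.06 (adjusted p = 0.0183), with XPC at 41.4, 38.2 and 37.8 CPM in the controls, 41.6, 36.5 and 34.5 CPM in shASXL2-2 and 40.4, 33.9 and 34.6 CPM in shASXL2-3.

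The apoptosis genes also split, with 4 of the 12 past the filter called higher and 4 called lower. AEN (NM_022767; chromosome 15, 89164568 to 89175512, plus strand, GRCh37), an apoptosis-enhancing nuclease, was at 25.5, 44.3 and 46.1 CPM in the controls, 29.4, 46.3 and 46.2 CPM in shASXL2-2 and 13.7, 40.6 and 42.7 CPM in shASXL2-3. Its 3 samples numbered 1 were the lowest of the 9, with a log2 difference of -0.99 ± 0.14 (edgeR, adjusted p = 0.000701). APAF1, the core of the apoptosome, showed the opposite order: 44.7, 24.4 and 32.4 CPM in the controls, 37.5, 22.4 and 26.1 CPM in shASXL2-2 and 50.1, 21.6 and 32.6 CPM in shASXL2-3, a difference of 0.74 ± 0.08 (adjusted p = 0.000209). TP53INP1, a stress protein that promotes p53 activity, was at 59, 33.7 and 28.8 CPM in the controls, 49.1, 32.7 and 31.6 CPM in shASXL2-2 and 65.3, 27.2 and 24.4 CPM in shASXL2-3 (0.97 ± 0.11, adjusted p = 0.000268). For APAF1 and TP53INP1 all 3 samples numbered 1 were above the other 6. TNFRSF10B (0.79 ± 0.19) and FAS (0.61 ± 0.22) were also called higher, but the FAS difference was 0.06 in the controls and 0.17 in shASXL2-2 against 1.43 in shASXL2-3. Without shASXL2-3 numbered 1, FAS was not called and the difference of TNFRSF10B was 0.37, still past the threshold.

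PHLDA3, an inhibitor of AKT signalling, was expressed at a low level of 0.88, 1.9 and 1.03 CPM in the controls, 0.502, 2.23 and 0.728 CPM in shASXL2-2 and 0.579, 1.82 and 0.692 CPM in shASXL2-3, and was lower in the samples numbered 1 by 0.96 ± 0.23 (edgeR, adjusted p = 0.00718). Its mean was 0.654 CPM for number 1, 1.98 CPM for number 13 and 0.818 CPM for number 25. Most of this difference thus lay in the samples numbered 13, and numbers 1 and 25 overlapped. TNFRSF10A was at 14.5, 15.5 and 21.4 CPM in the controls, 12.4, 12.7 and 17.8 CPM in shASXL2-2 and 13.3, 12.5 and 19.8 CPM in shASXL2-3, and TRIAP1, an inhibitor of apoptosis, at 38.8, 45 and 47.8 CPM, 48.4, 48.1 and 51.9 CPM and 40.8, 48.8 and 47.1 CPM. Both were called lower, by 0.28 ± 0.08 and 0.18 ± 0.06. The TRAIL receptor genes therefore differed in opposite directions in this contrast. For TNFRSF10A, however, the mean was 13.4 CPM for number 1, 13.6 CPM for number 13 and 19.7 CPM for number 25, so its difference lay in the samples numbered 25. Of the metabolism and secretion genes, LIF was higher by 0.78 ± 0.15 (adjusted p = 0.00288) and SESN1, a regulator of antioxidant defence and growth signalling, by 0.43 ± 0.09 (adjusted p = 0.00391), with SESN1 at 16, 14.5 and 13.5 CPM in the controls, 16.1, 12.4 and 10.3 CPM in shASXL2-2 and 16.6, 12.1 and 9.94 CPM in shASXL2-3. Without shASXL2-3 numbered 1 the differences of LIF and DDB2 were 0.46 and 0.29. In that fit 16 of the 19 members kept their call, where 33.7% of all genes were called, and FAS, GADD45A and TRIAP1 lost it.

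**Figure D3:**
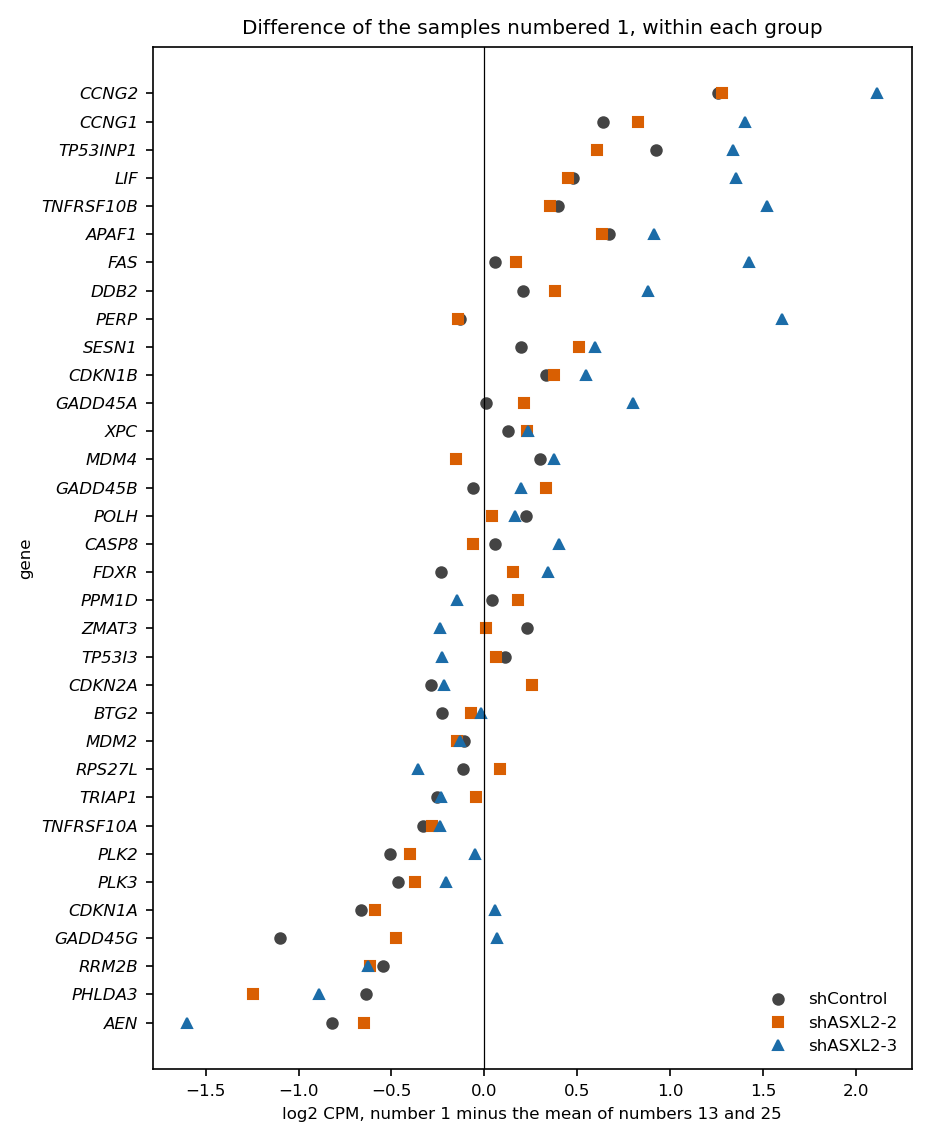
Difference in log2 CPM between the sample numbered 1 and the mean of the samples numbered 13 and 25, for each of the 34 members within each group. CCNG2 is at the top and AEN at the bottom in the mean of the groups, and the triangles of shASXL2-3 lie far to the right of the other symbols for FAS, PERP and TNFRSF10B.

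The third comparison, of the samples numbered 25 with those numbered 13, gave 9 calls among the 34 members against 5.87% of all genes, 4 higher and 5 lower where all genes gave 2.77% and 3.1%. PHLDA3 was lower in the samples numbered 25 by 1.29 ± 0.24 (edgeR, adjusted p = 0.0149), with the 3 samples numbered 13 at 1.82 to 2.23 CPM and those numbered 25 at 0.692 to 1.03 CPM. BTG2 was at 22.8, 33.4 and 21.4 CPM in the controls, 20.4, 27 and 17.1 CPM in shASXL2-2 and 25.7, 32.3 and 20.9 CPM in shASXL2-3, and was lower by 0.64 ± 0.08 (adjusted p = 0.00326). GADD45B, a stress-response gene related to GADD45A, was at 9.02, 12.2 and 7.3 CPM, 11, 10.5 and 7.28 CPM and 11, 12.1 and 7.57 CPM in the same order, and was lower by 0.65 ± 0.12 (adjusted p = 0.0125). For both genes the samples numbered 13 and 25 did not overlap. The same held for MDM2, MDM4, CDKN1B, CDKN2A, CCNG1 and CASP8, which were not called. The share of all genes without such overlap was not counted, so nothing is concluded from it about the members. RRM2B (-0.43 ± 0.07) and ZMAT3 (-0.35 ± 0.09) were the other members called lower.

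The members called higher in the samples numbered 25 were TNFRSF10A (0.54 ± 0.09; edgeR, adjusted p = 0.00844), PLK3 (0.40 ± 0.10), APAF1 (0.40 ± 0.09) and POLH (0.31 ± 0.08), the last a DNA polymerase that copies past damage. POLH was at 40.04, 29.9 and 39.2 CPM in the controls, 34.7, 32.2 and 35.2 CPM in shASXL2-2 and 37.2, 28.6 and 38.5 CPM in shASXL2-3. These calls depended on which samples entered. Without shASXL2-3 numbered 1 there were 16 of 34 members, where 19.2% of all genes were called, and the 7 added were CDKN1A, CDKN1B, CCNG1, CASP8, DDB2, LIF and MDM2. When all shControl samples or all shASXL2-2 samples were left out there were 0 (edgeR), where 0.323% and 0.05% of all genes were called, with 12 and 13 members at an unadjusted p under 0.05. CDKN1A was at -0.47 ± 0.14 with all samples (edgeR, adjusted p = 0.0750) and at -0.47 ± 0.08 without shASXL2-3 numbered 1 (adjusted p = 0.00164).

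**Figure D4:**
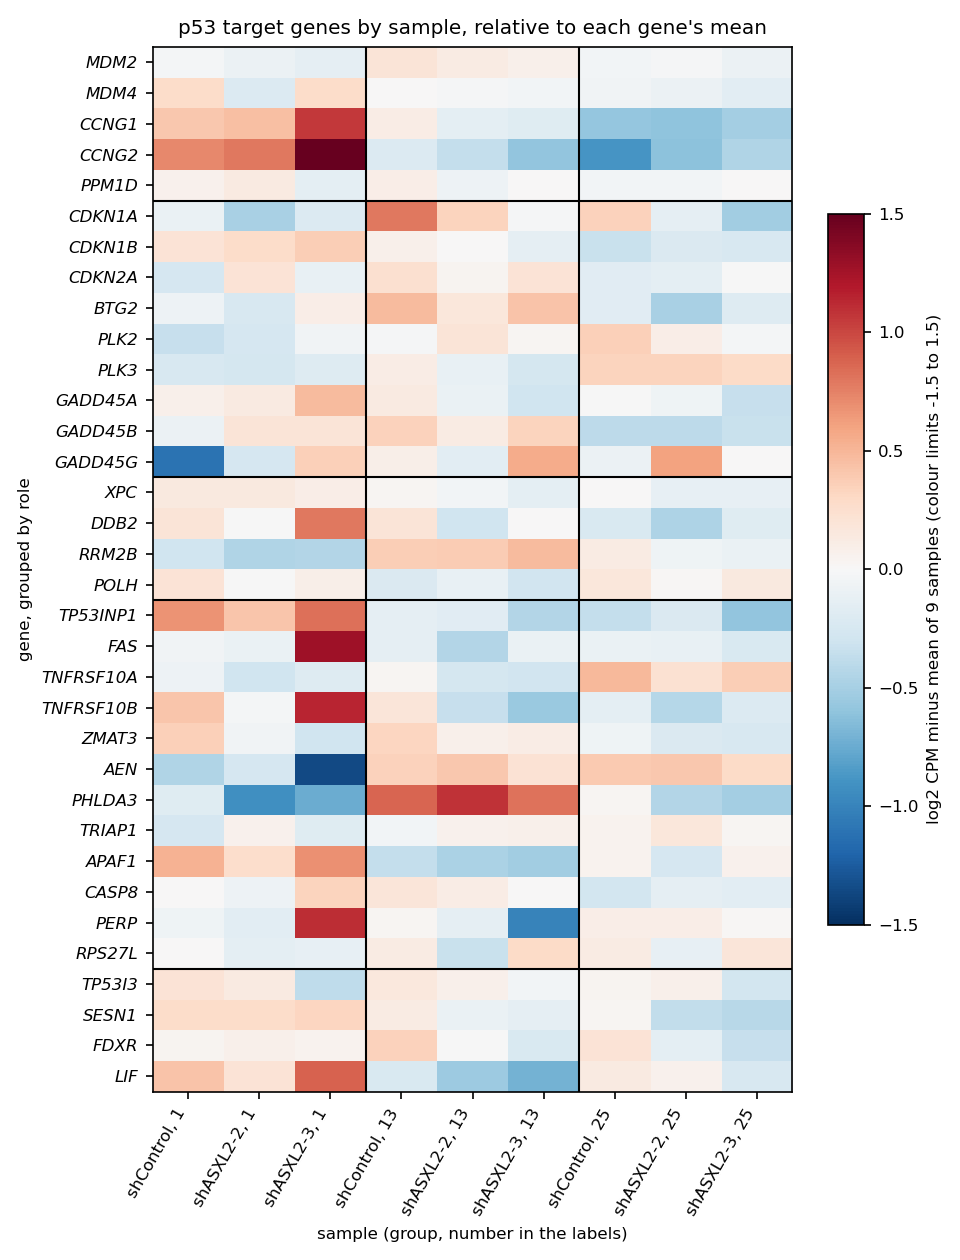
Log2 CPM of the 34 members in each of the 9 samples, relative to the mean of each gene over the samples, with genes grouped by role (feedback, cell cycle arrest, DNA repair, apoptosis, metabolism and secreted, from the top) and samples by number. The columns numbered 1 differ from the rest for CCNG1, CCNG2, TP53INP1, APAF1 and AEN in all 3 groups, and the column of shASXL2-3 numbered 1 also for FAS, TNFRSF10B and PERP.

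Other genes of the pathway were read from 3 lists of 104 genes in all, of which 91 passed the filter; the checkpoint kinase gene CHEK1 is on 2 of them. Of the 24 regulators past the filter, TP73, a member of the p53 family, was the one called after knockdown: it was at 13.4, 24.7 and 19.7 CPM in the controls, 9.21, 13.4 and 13.3 CPM in shASXL2-2 and 10.5, 12.1 and 10.1 CPM in shASXL2-3. It fell by 0.73 on the log2 scale (SE 0.11; edgeR with the block, adjusted p = 0.0329) for both shRNAs averaged, and by 0.79 (SE 0.13, adjusted p = 0.0409) for shASXL2-3. The shControl sample numbered 1 lay level with the highest knockdown samples. Without the block TP73 was at -0.75 ± 0.19 and not called (edgeR, adjusted p = 0.623), and without shASXL2-3 numbered 1 it was at -0.82 ± 0.08 in the fit with the block (adjusted p = 0.000284). Of 48 further p53 targets and of 20 cell cycle genes lowered through p21 and DREAM, 0 were called for either shRNA, for both averaged or between the shRNAs (edgeR with the block); at an unadjusted p under 0.05 they numbered 12 and 2 for both averaged, where all genes gave 20.4%, and DESeq2 with the block called 8 of the 91 genes of the 3 lists there, against 5.5% of the genes given an adjusted p. With both shRNAs averaged the 20 cell cycle genes had 15 positive and 5 negative values with a median of 0.07, where the median of all genes was 0.01. The 2 shRNAs differed here: shASXL2-2 gave 19 positive and 1 negative value (median 0.13), and shASXL2-3 gave 8 positive and 12 negative (median -0.0058). Without shASXL2-3 numbered 1, the calls for both averaged were 6 of 24 regulators, all lower, 5 of 48 further targets (2 higher, 3 lower) and 2 of 20 cell cycle genes, both higher, against the 12.3% given above. EP300, a coactivator of p53, was lower by 0.37 ± 0.09 and BAX, a pore-forming killer protein, higher by 0.22 ± 0.06 in that fit, both named after their values were seen.

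In the samples numbered 1, 14 of the 20 cell cycle genes were called lower and 0 higher, with a median difference of -0.30, where 22.2% of all genes were called lower and 24.1% higher. Without shASXL2-3 numbered 1 there were 11 lower and 0 higher, against 16.3% and 17.3% of all genes. CDC25A, a phosphatase that opens the way into S phase, was lower by 0.60 ± 0.09 (edgeR, adjusted p = 0.000899), and FOXM1, a mitotic transcription factor, by 0.48 ± 0.08 (adjusted p = 0.00161). CDC25A was at 49.3, 61.4 and 76.4 CPM in the controls, 52.8, 65.3 and 77 CPM in shASXL2-2 and 36.2, 65.5 and 73.4 CPM in shASXL2-3, lowest in the sample numbered 1 of every group. PLK1 and MCM5 were lower by 0.44 and 0.43. Of the 48 further targets, 15 were called higher and 16 lower, against the same 24.1% and 22.2%, and MR1 (0.75), TRIM22 (0.70), PML (0.55) and CYFIP2 (0.59) had the smallest p. The regulators gave 5 calls higher and 9 lower of 24 against these shares, among them RPL5 and RPL11, ribosomal proteins that bind MDM2, which were higher by 0.53 ± 0.09 and 0.44 ± 0.09, TP63 (1.79 ± 0.30), at 0.104 to 1.02 CPM, and CHEK1 (-0.32 ± 0.06). Between the numbers 25 and 13, ENC1 (-0.70), SIAH1 (-0.50) and TRIM22 (-0.43) were the calls among all 91 genes in the edgeR fit with every sample and the filter, where 5.87% of all genes were called. All 3 are further targets and were lower in the samples numbered 25.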

How the data were processed

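RNA of 9 SKNO-1 samples was sequenced from unstranded poly(A) libraries per the study's methods. The values deposited by the authors are whole-number read counts for each RefSeq transcript on hg19 (48104 rows a sample), not normalized; per the submitters' processing notes STAR, featureCounts and DESeq2 were used, with versions not given in the sources used here. Rows of 1 gene share reads, so each symbol was represented by its row with the highest total, which left 27714431 to 35406063 counts a sample. A gene with no count could be as high as 0.0847 to 0.108 CPM (3 counts), counting error only. Without strand, reads of overlapping antisense genes cannot be told apart.

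Groups and numbers came from the labels. Counts were tested with edgeR 4.0.16 (R 4.3.3; filterByExpr with a minimum count of 10 and total of 15, TMM, quasi-likelihood F test) over 14199 genes, with Benjamini-Hochberg adjustment over all of them and a threshold of 0.05. The fit without a block left 6 residual degrees of freedom and the fit with the sample number as a block 4; the contrasts between numbers have group as a term. The standard error is the log2 fold change divided by the square root of F, same-number ratios use a prior count of 2, and DESeq2 1.42.0 was an alternative. Same-numbered samples deviated together from their group means (correlation at least 0.398 in each of 9 pairs, mean 0.598), so the numbers were taken to pair the samples; the labels do not state it. Samples within groups differed beyond sampling noise. The fits were tested on simulated data.

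The members, the lists and the tests were chosen with earlier results of these data known. The genes given by sample are those past the threshold in a contrast, those with the smallest p in each contrast (3 for knockdown contrasts, 2 between the shRNAs, 6 between numbers), MDM2, CDKN1A, GDF15, CCNG2, CDKN1B and a further gene that is not reported here; at most 4 genes of each pathway list and contrast are named. Alternatives were DESeq2 and its size factors, no filter, rows summed per symbol, a correction for length and GC content, no group term and leaving out samples. Gene positions are from GENCODE 44 mapped to GRCh37.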

Additional observations from a re-analysis of the deposited data

How the results depend on the processing

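With all 9 samples and without the block, 0 members were called between groups under each of the other size factors, no filter, summed rows and DESeq2, and leaving out 1 sample at a time gave 0 calls as well. Members were called between groups only with the block, where the cause of the gains was not tested. With no filter and in DESeq2 these were 2 for shASXL2-3 and 2 for both shRNAs averaged, CDKN1A and ZMAT3 in each case, where no filter gave 2.06% and 2.83% of all genes and DESeq2 4.04% and 5.5%. Across the fits with the block that left out a number or shASXL2-3 numbered 1, the members called ranged from 0 to 6 for shASXL2-2 (1 without number 1), 0 to 3 for shASXL2-3 (3 without number 1), 0 to 6 for both averaged (2 without number 1) and 0 to 1 between the shRNAs (1 without number 1). They were 6, 3, 6 and 1 without shASXL2-3 numbered 1. Of all genes, 1.9%, 2.42%, 2.63% and 0.916% were called without number 1, and 11.2%, 2.58%, 12.3% and 0.721% without shASXL2-3 numbered 1. In edgeR with the filter and all samples the replicate block changed no member's call, and ASXL2 was called in the fit with it.

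For the samples numbered 1, the members called ranged from 12 (without shASXL2-2) to 16 with a group or shASXL2-3 numbered 1 left out, and the share of all genes called from 32.1% to 36.2%. For the numbers 25 and 13 they ranged from 0 (without shControl, and without shASXL2-2) through 14 (without shASXL2-3) to 16 (without shASXL2-3 numbered 1), and were 5 with no group term; of all genes 0.323%, 0.05%, 14.7%, 19.2% and 2.14% were called.

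The pathway list gave 0 calls between groups without the block. With the block, and likewise with other size factors, 1 gene was called for shASXL2-3 and 1 for both averaged. Summed rows gave 1 for both averaged, and the genes with a known length gave 2 for shASXL2-3 and 1 for both averaged. The calls with the block and no filter were 4 for shASXL2-2, 9 for shASXL2-3, 8 for both averaged and 2 between the shRNAs, against 1.54%, 2.06%, 2.83% and 0.814% of all genes; in DESeq2 with the block they were 5, 9, 8 and 3, against 3.08%, 4.04%, 5.5% and 1.29%. Leaving out number 1 gave 3, 4, 2 and 2, and leaving out shASXL2-3 numbered 1 gave 14, 2, 13 and 2, where all genes gave the shares above. Between the numbers 25 and 13 the list gave 3 calls (5.87% of all genes), 11 with no filter (5.36%), 8 in DESeq2 (7.73%), 1 with no group term, and 0 to 26 with samples left out (17 without shASXL2-3, 26 without shASXL2-3 numbered 1).

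Some values near 0 changed sign for both shRNAs averaged. MDM2 was at 0.0151 without shControl numbered 13 and at 0.0192 with the block and the length and GC correction. With 1 sample left out at a time it ran from -0.1044 to 0.0151. CCNG2 was at -0.0188 without shControl numbered 25 and at -0.2624 without shASXL2-3 numbered 1, in a range from -0.2624 to 0.8199. CDKN1B, in a range from -0.1115 to 0.1419, was at -0.1115, -0.0395 and -0.0803 without shControl numbered 25, shASXL2-2 numbered 1 and shASXL2-3 numbered 1; with the block it was at -0.0213 without number 1, -0.0158 without number 25, -0.013 with the correction and -0.0125 without shASXL2-3 numbered 1. None of these passed the threshold. Low counts limit GDF15, EDA2R, SPATA18 and GADD45G, for which no difference was detectable at this depth.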
